A study of Rattus norvegicus with 30 samples.

Results

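Genes of the actin cytoskeleton and of the contractile apparatus were followed through the first 72 h after induction in mesenchymal stem cells grown from rat bone marrow (BMSCs). The members were taken by name: alpha-actinins, myosin heavy and light chains, unconventional myosins, tropomyosins, calponins, transgelins, filamins, troponins, leiomodins, PDLIM proteins and synaptopodins by their family prefix, and the actins, Cald1, Vcl, Zyx, Smtn and Des by symbol. Of the 9999 gene names in the files, 67 were members, and 37 of these passed the filter on low values, among 4363 genes that did. The rule used names alone, and 6 members on 2 rows each (Vcl, Tpm3, Myo18a, Synpo, Actn4 and Actn1) were summed. The prefix for myosin light chains also took Mylip, a ubiquitin ligase that is not a myosin chain, and the troponin prefix took Tnni3k, a kinase.

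In non-muscle cells, actin filaments and myosin 2 form stress fibres that are anchored at focal adhesions and cross-linked by alpha-actinin. Tropomyosins, calponins, caldesmon and transgelin bind along the filaments, and the variants Cnn1, Tagln, Acta2 and Actg2 are best known from smooth muscle. Many of these genes are targets of serum response factor (SRF), whose cofactors MRTF and myocardin sense actin polymerization or mark smooth muscle, and cell shape and actin tension are known to bear on the choice between bone, fat and cartilage fates in mesenchymal cells.

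BMSCs came from femur and tibia of 3 female Sprague Dawley rats aged 3 weeks and were used at passage 2. Cells before induction were labelled CON (0 h), and the other cells were given a commercial osteogenic (OS), adipogenic (AD) or chondrogenic (CH) medium for 3 h, 12 h or 72 h, with 3 samples in each of the 10 groups and 30 in all. Every sample was RNA from 3 cultures pooled, and which rat a sample came from is not stated, so the p-values measure the spread between these pools. All groups share the strain and the culture before induction, and the labels name no genetic change. There is no uninduced group at a later time, and the 9 comparisons with 0 h share the same 3 CON samples, so medium change, time in culture and differentiation cannot be told apart in them.

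Expression is given as CPM, a gene's reads scaled to a common library total. The reads per sample recovered from the values ranged from 3899609 to 9046719, and 3 reads corresponded to 0.332 to 0.769 CPM. A gene was counted as changed, and is said to have risen or fallen, when limma gave an absolute log2 fold change of at least 1 on the log2(CPM + 1) scale and an adjusted p below 0.05 over all genes tested. On this scale the change of a gene with few reads is understated. Low values under a name cannot be read as low expression here, because Ppia never exceeded 3 reads and Vim never exceeded 10 reads in any sample, although every such cell uses them, while Rplp0 was listed between 2075 and 7542 CPM. Likewise Actb, cytoplasmic beta-actin, was listed at 3.01, 0.557 and 2.43 CPM at 0 h. Acta2 had at most 1 read, Mylk 1, Lmod1 2, Actc1 4 and Myh11 6 reads in any sample, and the 30 members that were not tested had at most 12. Of these 30, 20 had 3 reads or fewer in every sample. Levels are therefore compared between groups for the same gene, not between genes. The names Actg1, Myh9, Myl9, Flna, Zyx and Smtn were not analysed here.

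The label of the cells was checked against marker genes. Thy1, Cd44 and Itgb1, markers of mesenchymal stromal cells, were listed at 7736, 8139.7 and 8279.7 CPM, 579, 591 and 628 CPM and 7259, 7769 and 8160.2 CPM at 0 h, while Eng, Pdgfra and Pdgfrb had at most 4, 12 and 16 reads. The haematopoietic markers Csf1r and Cd34 and the skeletal muscle markers Myod1 and Myf5 had at most 7, 3, 4 and 4 reads in a sample, and the endothelial marker Vwf stayed between 0.151 and 4.32 CPM. Since names of genes in general use are also near 0, these low values do not show that such cells were absent. Against the other 2 samples of their groups, 3 samples stood apart: AD 72 h replicate 3 with 74 genes more than 2 log2 units away, AD 12 h replicate 1 with 24 and OS 3 h replicate 3 with 18.

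Of the 37 tested members, 30 (81.1%) changed in at least 1 of the 24 comparisons made and 27 (73%) changed against 0 h, where 67.1% and 53.2% of all genes tested did, while Actb, Actn1, Myo18a, Myo9a, Synpo, Tagln2 and Tpm3 changed in none. The 30 and the 27 include Lmod3, Myo7a, Pdlim3, Actn3, Mylk3 and Synpo2, which passed the filter through the medium where they are high. These 2 shares are therefore no measure of an excess over all genes. The smooth-muscle-type genes Cnn1, Tagln and Actg2 rose within 3 h in all 3 media and at 12 h were still above 0 h in the chondrogenic medium, where they exceeded the adipogenic samples. The non-muscle myosin heavy chain gene Myh10 fell in the osteogenic and adipogenic media and was higher in the chondrogenic medium than in either at 72 h. Summed over the 11 listed genes of the smooth muscle set, the level was 168 ± 12.7 CPM (SD, n = 3) at 0 h. The 3 h samples had 513 ± 17.1 CPM in OS, 399 ± 4.29 CPM in AD and 610.3 ± 10.3 CPM in CH. By 12 h the sums were 123 ± 5.31 CPM in OS, 55.8 ± 3.05 CPM in AD and 525 ± 45.8 CPM in CH. By 72 h all 3 were below the 0 h samples, at 45.3 ± 0.979, 40.8 ± 3.46 and 118 ± 3.2 CPM. At 0 h and 3 h most of this sum was Cnn1. Without Cnn1 the other 10 genes summed to 79.8 ± 11.9 CPM at 0 h, and to 125 ± 15.9 CPM in OS, 90.1 ± 2.77 CPM in AD and 169 ± 11.8 CPM in CH at 3 h, and the AD samples then overlapped with those of 0 h. At 12 h this smaller sum was 49.3 ± 4.69 CPM in OS, 38.6 ± 5.08 CPM in AD and 136 ± 18.1 CPM in CH. The sum over all 67 members was 12379.5 ± 189 CPM at 0 h and 19559.9 ± 2186 CPM in CH at 72 h. Without Myh10 and Myo1d it was 2483 ± 91.6 CPM at 0 h, 4548 ± 306 CPM in CH at 3 h and 2230.0 ± 123 CPM in CH at 72 h, so the sum over the other 65 members was lower in every CH 72 h sample than in every 0 h sample.

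**Figure D1:**
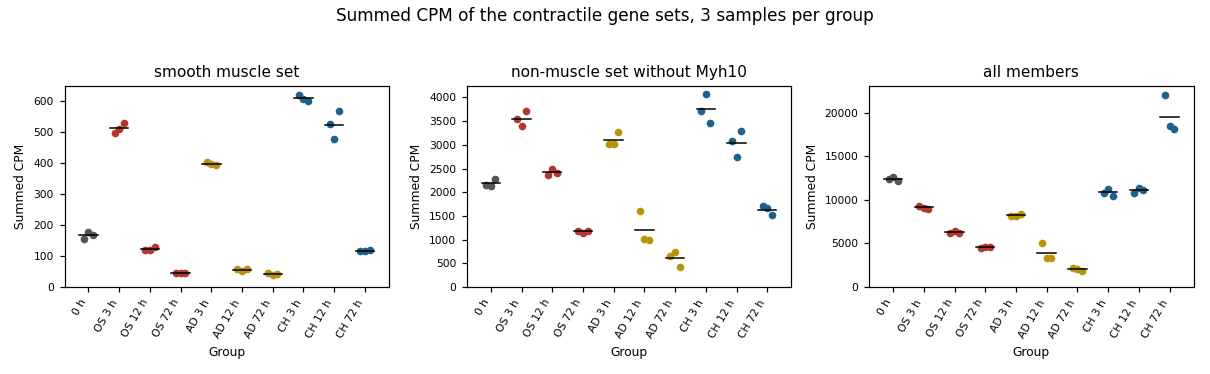
Summed CPM per sample (y axis) in each group (x axis) for the smooth muscle set of 11 listed genes, the non-muscle set without Myh10 (10 genes) and all 67 members; points are samples and black bars are means of 3. In the smooth muscle panel the CH 12 h samples lie at 477 CPM or above while the OS and AD 12 h samples lie at 129 CPM or below, and most of the sum at 0 h and 3 h is Cnn1; over all members the CH 72 h samples lie at 18159 CPM or above, a sum that is mostly Myh10 and Myo1d.

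Cnn1, calponin 1, an actin-binding protein of smooth muscle, was listed at 87.1, 88.7 and 88 CPM in the CON samples. After 3 h it stood at 382, 393 and 387 CPM in OS, 315, 311 and 302 CPM in AD and 439, 444 and 441 CPM in CH. None of these groups overlapped the 0 h samples, and Cnn1 rose in all 3 media (log2 fold change 2.13 ± 0.17 SE, limma adjusted p = 1.15e-11 in OS, 1.80 ± 0.17 SE, adjusted p = 3.94e-10 in AD and 2.31 ± 0.17 SE, adjusted p = 1.61e-12 in CH). At 12 h the media had separated, with 71.1, 74.4 and 74.3 CPM in OS, 24.4, 13.3 and 13.9 CPM in AD and 393, 358 and 413 CPM in CH. The CH samples were higher than the AD samples by log2 fold change 4.47 ± 0.17 SE, limma adjusted p = 4.39e-19, and higher than OS (OS minus CH, log2 fold change -2.39 ± 0.17 SE, limma adjusted p = 1.03e-12). At 72 h the OS samples were down to 1.79, 1.25 and 1.21 CPM and the AD samples to 3.03, 1.24 and 2.22 CPM, and the CH samples held 64.4, 56.8 and 57.6 CPM. The OS and AD values had fallen against 0 h (log2 fold change -5.21 ± 0.17 SE, limma adjusted p = 1.4e-20 in OS, -4.85 ± 0.17 SE, adjusted p = 6.12e-20 in AD), and the CH change was below the threshold of 1, at -0.56.

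The same early rise was seen for Tagln, transgelin or SM22, another actin-binding protein of smooth muscle. Its values were 11.5, 14.8 and 13.2 CPM at 0 h and, at 3 h, 54.5, 56.6 and 77.9 CPM in OS, 43.8, 34.6 and 52 CPM in AD and 74, 70 and 58.6 CPM in CH (log2 fold change 2.17 ± 0.22 SE, limma adjusted p = 1.68e-09 in OS, 1.64 ± 0.22 SE, adjusted p = 3.2e-07 in AD, 2.28 ± 0.22 SE, adjusted p = 5.84e-10 in CH). At 12 h the CH samples held 69, 69.7 and 72.4 CPM, against 19, 14.8 and 14.9 CPM in OS and 6.87, 9.76 and 10.2 CPM in AD, which no longer differed from 0 h by the criteria. CH exceeded AD (log2 fold change 2.86 ± 0.22 SE, limma adjusted p = 7.98e-12) and OS (OS minus CH log2 fold change -2.06 ± 0.22 SE, limma adjusted p = 6.28e-09). At 72 h the CH samples had come down to 20.8, 22.6 and 24.5 CPM, still above the 4.99, 4.43 and 7.44 CPM of AD (log2 fold change 1.86 ± 0.22 SE, limma adjusted p = 2.31e-08) and the 8.5, 3.74 and 7.83 CPM of OS. The fall of Tagln in AD at 72 h against 0 h, -1.11, was -0.96 under median-ratio scaling and so below the threshold there.

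The muscle actins followed at much lower read numbers. Actg2, enteric smooth muscle actin, had 0 reads in all 3 CON samples and 3.45, 2.05 and 3.32 CPM in OS, 3.32, 2.05 and 3.72 CPM in AD and 2.85, 3.38 and 1.72 CPM in CH at 3 h, which is at least 6.46-fold, 6.65-fold and 5.82-fold higher than 3 reads per library would give at 0 h. It stayed at 2.17, 2.03 and 3.01 CPM and 2.82, 2.43 and 3.11 CPM in CH at 12 h and 72 h, and returned to 0.603, 0.299 and 0.305 CPM in OS and 1.17, 0.184 and 0 CPM in AD at 12 h. Acta1, skeletal muscle actin, was listed at 0, 0.418 and 0 CPM (0, 3 and 0 reads) in CON and at 2.98, 1.74 and 2.9 CPM, 4.97, 3.62 and 4.46 CPM and 5.54, 5.58 and 6.52 CPM at 3 h in OS, AD and CH (log2 fold change 1.64 ± 0.26 SE, limma adjusted p = 5.6e-06; 2.24 ± 0.26 SE, adjusted p = 2.91e-08; 2.61 ± 0.26 SE, adjusted p = 1.34e-09). In CH it was 7.08, 6.23 and 9.19 CPM at 12 h and 1.8, 2.65 and 2.45 CPM at 72 h, while AD stood at 0.439, 0.368 and 1.48 CPM at 12 h. Both actins rose in 5 of the 9 comparisons with 0 h, at 3 h in each medium and at 12 h and 72 h in CH. Acta1 and Actg2 reads may include reads shared with the other, very similar actin genes, since how shared reads were counted is not given in the sources used here.

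**Figure D2:**
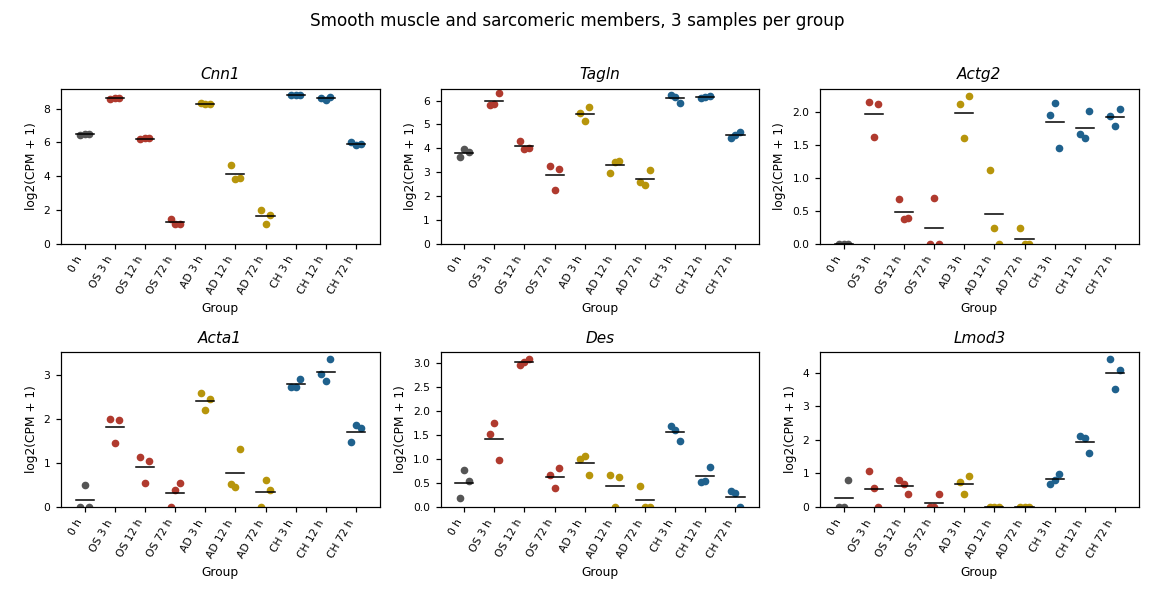
log2(CPM + 1) per sample (y axis) in the 10 groups (x axis) for 6 smooth muscle and sarcomeric members; points are samples and black bars are means of 3. Cnn1, Tagln, Actg2 and Acta1 are raised at 3 h in each medium and remain raised at 12 h in CH, Des peaks in OS at 12 h and Lmod3 in CH at 72 h.

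The other genes of the smooth muscle set moved in different ways. Des, desmin, the intermediate filament protein of muscle, was listed at 0.143, 0.696 and 0.455 CPM at 0 h and peaked at 6.78, 7.17 and 7.46 CPM in OS at 12 h (log2 fold change 2.53 ± 0.23 SE, limma adjusted p = 1.87e-10), above every other group. It was back at 0.597, 0.312 and 0.753 CPM in OS at 72 h. Tpm1, a tropomyosin gene used in muscle and non-muscle cells, had 14.9, 26.2 and 18 CPM at 0 h, fell to 4.97, 7.71 and 5.5 CPM in AD at 3 h (log2 fold change -1.53 ± 0.21 SE, limma adjusted p = 7.19e-07) and to 6.03, 5.53 and 6.7 CPM in OS at 12 h (log2 fold change -1.51 ± 0.21 SE, limma adjusted p = 6.76e-07), and was back at 16.9, 13.1 and 14.9 CPM and 16.7, 18.3 and 15.1 CPM at 72 h. In CH at 3 h it was 36.4, 33.8 and 45.9 CPM, above AD (log2 fold change 2.50 ± 0.21 SE, limma adjusted p = 1.58e-10) and OS without overlap. Cald1, caldesmon, fell from 19.8, 21.9 and 18.7 CPM to 5.75, 8.97 and 6.54 CPM in AD at 3 h and 3.92, 3.89 and 8.07 CPM in OS at 12 h (log2 fold change -1.81 ± 0.29 SE, limma adjusted p = 4.62e-06). Tpm2, the beta-tropomyosin gene, went from 20.5, 26.6 and 31.5 CPM to 7.16, 8.74 and 6.93 CPM in OS, 6.05, 6.38 and 1.9 CPM in AD and 4.87, 7.96 and 6.45 CPM in CH at 72 h, and it fell in all 3 media (log2 fold change -1.65 ± 0.28 SE, limma adjusted p = 2.41e-05 in OS, -2.33 ± 0.28 SE, adjusted p = 5.41e-08 in AD, -1.87 ± 0.28 SE, adjusted p = 2.07e-06 in CH). Synpo2, a Z-disc and stress fibre protein, had 0 reads at 0 h and 2.14, 1.42 and 1.9 CPM in AD at 72 h, at least 4.0-fold above the 3-read level of the CON libraries. Outside AD only 1 sample had 1 CPM or more, so it passed the filter through AD, where it is high.

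The members were searched for SRF-type and TEAD-type letters upstream of their starts, since SRF binds the CArG box and TEAD factors bind CATTCC. RefSeq windows of the rat assembly GRCr8, from 250 bases before to 50 after each gene start, were matched to 54 of the 67 members by symbol. A CArG box in its strict form was found in 5 of these 54 windows (9.26%; Acta1, Actc1, Cnn2, Myh4 and Myl3) and in 1.64% of 27457 windows of all genes, and CATTCC on either strand in 17 of 54 (31.5%) and in 13.9% of all. Of the CArG members, Actc1, Myh4 and Myl3 were not tested and had at most 5 reads in any sample. The 17 with CATTCC likewise include the untested Acta2, Myh4, Myh6, Myl10, Myl3, Mylk, Myo16, Myo1g and Tnni3k. These shares thus describe names, many without a measured change here. These matches describe letters in a window and are not binding sites. The 150 bases before the start are shown, 5′ to 3′ on the gene's strand, for 4 genes that the results turn on: Acta1 and Cnn1, which rose together, Cnn2, a non-muscle calponin whose 3 h differences stayed below the threshold, and Myh10. Capitals mark a CArG box or a CATTCC match.
Acta1 (chr19:68784195-68784344, minus strand, CArG box at position -94 and CATTCC at -67 from the gene start): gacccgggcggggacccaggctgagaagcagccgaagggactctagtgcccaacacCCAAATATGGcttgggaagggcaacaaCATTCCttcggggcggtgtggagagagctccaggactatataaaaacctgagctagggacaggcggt
Cnn1 (chr8:28908287-28908436, plus strand, no match in the window): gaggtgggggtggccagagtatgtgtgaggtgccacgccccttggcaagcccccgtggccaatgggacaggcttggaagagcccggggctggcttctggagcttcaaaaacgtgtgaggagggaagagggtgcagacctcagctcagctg
Cnn2 (chr7:10370313-10370462, minus strand, CArG box at -71): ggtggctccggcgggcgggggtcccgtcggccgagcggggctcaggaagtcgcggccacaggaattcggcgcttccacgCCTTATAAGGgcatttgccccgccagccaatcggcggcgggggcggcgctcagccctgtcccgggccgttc
Myh10 (chr10:53893114-53893263, plus strand, CATTCC at -118): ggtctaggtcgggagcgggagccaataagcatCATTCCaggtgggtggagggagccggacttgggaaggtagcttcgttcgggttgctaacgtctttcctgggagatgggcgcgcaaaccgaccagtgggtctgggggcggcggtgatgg
Acta1 and Cnn1 rose at 3 h in all 3 media, the first with and the second without a match in this window. Cnn2, with a match, was 1080.4, 992 and 1467 CPM in OS and 1116, 1254 and 1015 CPM in CH at 3 h, above its 0 h samples without overlap but below the threshold (log2 fold changes 0.76 and 0.71).

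Myh10, non-muscle myosin heavy chain 2B, fell in every medium within 3 h and then parted between media. At 0 h it was 7812, 7945 and 7498 CPM, and at 3 h it had fallen to 2893, 2829 and 2367 CPM in OS, 2579, 2663 and 2579 CPM in AD and 3381, 3470.4 and 3436 CPM in CH (log2 fold change -1.53 ± 0.11 SE, limma adjusted p = 1.08e-12 in OS, -1.57 ± 0.11 SE, adjusted p = 6.08e-13 in AD, -1.18 ± 0.11 SE, adjusted p = 2.48e-10 in CH). The OS samples continued to 2030.0, 1912 and 1885 CPM at 12 h and 1231, 1299 and 1286 CPM at 72 h, and the AD samples to 1920.0, 1517 and 1542 CPM and 914, 801 and 848 CPM. Both media were then below 0 h without overlap (log2 fold change -2.61 ± 0.11 SE, limma adjusted p = 5.25e-18 in OS, -3.18 ± 0.11 SE, adjusted p = 6.12e-20 in AD). In CH, Myh10 was 3579.9, 4501 and 3771 CPM at 12 h and 15160.2, 12070.0 and 12082 CPM at 72 h, a rise between these times of log2 fold change 1.73 ± 0.11 SE, limma adjusted p = 1.27e-13. At 72 h all 3 CH samples lay above all 3 CON samples, but the change against 0 h, 0.75 on the log2 scale, was below the threshold of 1. The CH samples exceeded the OS samples at 72 h (OS minus CH log2 fold change -3.36 ± 0.11 SE, limma adjusted p = 6.94e-21).

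Myo1d, an unconventional myosin that links membranes to actin, also parted between media. It stood at 2145, 2180.1 and 2111 CPM at 0 h and between 1671 and 2284 CPM in all 9 OS samples, where it passed the threshold at no time. In AD it was 1998, 2011 and 2020.5 CPM at 3 h, 1385, 688 and 706 CPM at 12 h and 457, 443 and 454 CPM at 72 h, and it fell against 0 h at 12 h (log2 fold change -1.29 ± 0.14 SE, limma adjusted p = 2.17e-08) and 72 h (-2.25 ± 0.14 SE, adjusted p = 1.2e-13). The AD 12 h sample at 1385 CPM is replicate 1, which stands apart over all genes. In CH it was 2886, 2964 and 2772, 3395, 3449 and 3296 and 4568, 4136 and 3973 CPM at the 3 times, all above the CON samples, with 0.98 at 72 h just below the threshold of 1. CH exceeded AD at 72 h by log2 fold change 3.22 ± 0.14 SE, limma adjusted p = 1.12e-17.

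Among the non-muscle actin-binding genes, Tpm4, Cnn2 and Actn4 had their lowest group means in AD at 72 h. Tpm4, a tropomyosin of stress fibres and adhesions, was 1106, 1118 and 1216 CPM at 0 h, 1863, 1843 and 1365 CPM in OS, 1654, 1787 and 1863 CPM in AD and 1833, 2028 and 1805 CPM in CH at 3 h, where the log2 changes were 0.55, 0.62 and 0.72 and stayed below the threshold. By 72 h it fell to 548, 525 and 543 CPM in OS (log2 fold change -1.09 ± 0.19 SE, limma adjusted p = 4.95e-05) and 306, 334 and 155 CPM in AD (-2.19 ± 0.19 SE, adjusted p = 1.36e-10), and stood at 709.6, 754 and 681 CPM in CH. Actn4, alpha-actinin 4, a cross-linker of actin filaments, went from 305, 309.5 and 329 CPM at 0 h to 548, 499.6 and 541 CPM at 3 h (0.75, below the threshold), 251, 133 and 131 CPM at 12 h and 66.1, 74.3 and 60.5 CPM at 72 h in AD (log2 fold change -2.22 ± 0.16 SE, limma adjusted p = 1.56e-12 at 72 h), while at 12 h OS had 499.6, 549 and 529.7 CPM and CH 489, 472 and 525 CPM. In OS at 72 h it was 209.6, 213 and 200.1 CPM, below every 0 h sample but short of the threshold (-0.60). Its rise in CH at 3 h to 699.8, 725 and 602 CPM, 1.10, was 0.76 under median-ratio scaling and not past the threshold there or in edgeR. Cnn2, whose promoter window is shown above, was 695, 674 and 693 CPM at 0 h and fell in AD at 72 h to 253, 295 and 178 CPM (log2 fold change -1.53 ± 0.15 SE, limma adjusted p = 1.24e-09). Cnn3, the acidic calponin, was 15.2, 16.9 and 17 CPM at 0 h and 32.1, 25.1 and 109 CPM in OS at 3 h, where the last value is replicate 3. With it the log2 fold change was 1.40, and without it 0.76 ± 0.19 SE (adjusted p = 0.00195), below the threshold. In AD at 3 h Cnn3 rose to 45.4, 37.6 and 40 CPM (log2 fold change 1.27 ± 0.29 SE, limma adjusted p = 0.000699).

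**Figure D3:**
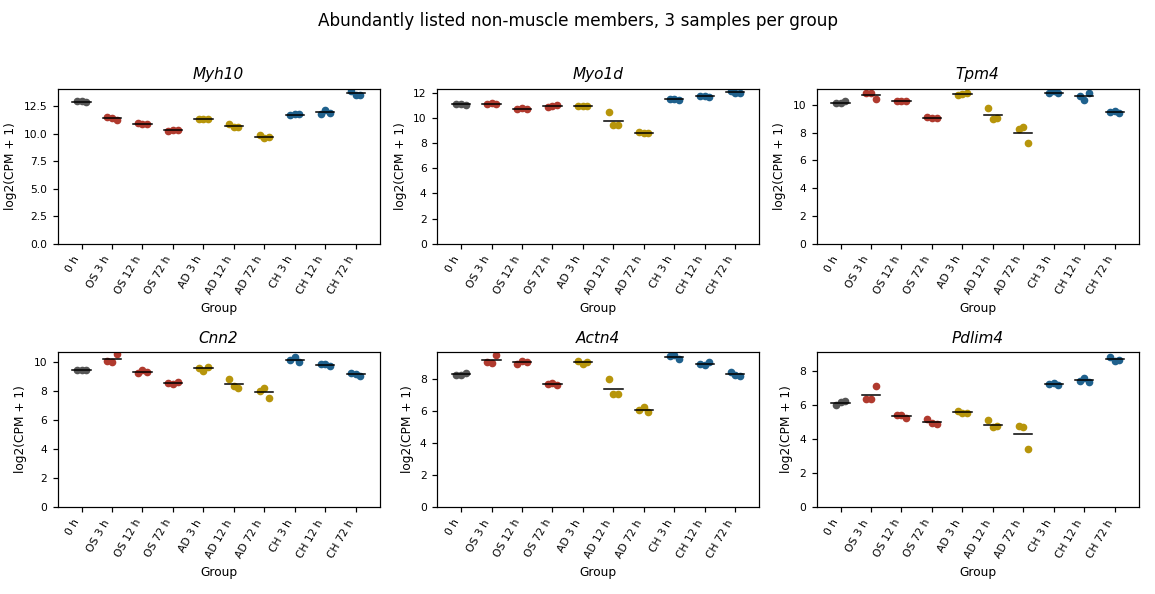
log2(CPM + 1) per sample (y axis) in the 10 groups (x axis) for 6 abundantly listed non-muscle members; points are samples and black bars are means of 3. Myh10 falls in OS and AD and is highest in CH at 72 h, Myo1d and Pdlim4 part between AD and CH, and Tpm4, Cnn2 and Actn4 reach their lowest values in AD at 72 h.

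PDLIM proteins bind alpha-actinin at Z-discs and stress fibres, and Pdlim4 was higher in CH than in AD at each time. It was 62.2, 71.7 and 73.1 CPM at 0 h and rose in CH to 146, 154 and 141 CPM at 3 h, 169, 188 and 162 CPM at 12 h and 459, 388 and 393 CPM at 72 h (log2 fold change 2.56 ± 0.23 SE, limma adjusted p = 1.09e-10 at 72 h). The 3 h rise, 1.09, was 0.75 under median-ratio scaling. In AD it fell to 33.1, 24.9 and 26.1 CPM at 12 h and 26.7, 25.5 and 9.5 CPM at 72 h (log2 fold change -1.82 ± 0.23 SE, limma adjusted p = 1.23e-07), and in OS to 34.9, 30.3 and 28.3 CPM at 72 h (log2 fold change -1.12 ± 0.23 SE, limma adjusted p = 0.000258). CH exceeded AD at 72 h by log2 fold change 4.38 ± 0.23 SE, limma adjusted p = 3.45e-16. Pdlim3, a relative from the muscle Z-disc, had 0 reads at 0 h and in all 9 AD samples and reached 5.13, 5.08 and 3.56 CPM in CH at 72 h, at least 10.1-fold above the 3-read level of the CON libraries. It too reached 1 CPM in CH samples only and so passed the filter through them, and no test is given for it. Vcl, vinculin, which links integrin adhesions to actin, was 8.02, 5.29 and 10.6 CPM at 0 h and fell to 2.34, 1.66 and 2.78 CPM in AD at 12 h (log2 fold change -1.43 ± 0.29 SE, limma adjusted p = 0.000178) and 3.33, 2.43 and 1.11 CPM in CH at 72 h (log2 fold change -1.46 ± 0.29 SE, limma adjusted p = 0.000114), but was 10.9, 10.9 and 6.78 CPM in OS at 72 h. The fall of Vcl in AD at 72 h, -1.14, was -0.87 without AD 72 h replicate 3.

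A few members with low read numbers appeared in the chondrogenic medium. Myo7a, a myosin known from hair cells, was listed at 0, 0.418 and 0 CPM at 0 h and never above 0.692 CPM in OS or AD. In CH it was 7.94, 9.1 and 8.6 CPM at 3 h, 8.38, 6.86 and 7.76 CPM at 12 h and 8.46, 4.86 and 6.0 CPM at 72 h. Every sample with at least 1 CPM of Myo7a was from CH, so it passed the filter on low values only through the medium where it is high, and no test is given for it. Lmod3, leiomodin 3, which nucleates actin filaments in skeletal muscle, was 0, 0 and 0.758 CPM at 0 h and 0 in the AD samples of 12 h and 72 h. In CH it was 0.599, 0.734 and 0.983 CPM at 3 h and stood at 3.32, 3.12 and 2.06 CPM at 12 h and 20, 10.4 and 16 CPM at 72 h. Outside CH only 1 sample had 1 CPM or more, so Lmod3 too passed the filter through CH, and no test is given for it. Actn2, the alpha-actinin of striated muscle, went the other way and fell in 6 of the 9 comparisons with 0 h (8 under median-ratio scaling and in edgeR, with OS and CH at 3 h added, where the main values were -0.91 and -0.92, and OS at 3 h was -1.26 and called without replicate 3), from 5.3, 5.57 and 5.76 CPM to 0.452, 0.598 and 0.305 CPM in OS and 0.293, 0.184 and 0.37 CPM in AD at 12 h, and to 1.54, 0.442 and 0.445 CPM in CH at 72 h (log2 fold change -1.91 ± 0.28 SE, limma adjusted p = 1.5e-06). Of the 18 listed genes of the sarcomeric set, 5 were tested and 9 had 3 reads or fewer in every sample, Myh4, Myh6, Myh7 and Myh8 among them.

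Lower-read members added single changes. Myl6, the essential light chain of non-muscle and smooth muscle myosin, fell from 9.6, 8.08 and 8.04 CPM to 3.47, 2.54 and 4.42 CPM in OS at 12 h, 2.65, 4.88 and 3.87 CPM in AD at 3 h and 3.33, 3.1 and 4.67 CPM in CH at 72 h (log2 fold change -1.11 ± 0.32 SE, limma adjusted p = 0.00492 in OS, -1.02 ± 0.32 SE, adjusted p = 0.0106 in AD, -1.04 ± 0.32 SE, adjusted p = 0.0106 in CH). Myo1a, a brush border myosin, was 0, 1.39 and 0.152 CPM at 0 h and 3.1, 2.05 and 4.02 CPM in AD and 2.25, 2.79 and 1.97 CPM in CH at 3 h. Mylk3, a myosin light chain kinase of heart muscle, and Actn3, the alpha-actinin of fast muscle fibres, were 1.88, 0.944 and 1.64 CPM and 1.55, 1.26 and 2.08 CPM in AD at 3 h. Each had 1 sample outside AD at 1 CPM or more and passed the filter through AD, where it is high. Myo6, a myosin that walks towards the minus end of actin, fell in OS at 3 h from 1.72, 1.25 and 2.58 to 0.313, 0 and 0.553 CPM. These values rest on few reads. Mylip, which the name rule took although it is a ubiquitin ligase of lipoprotein receptors, was 32.5, 39.1 and 38.1 CPM at 0 h and fell to 9.4, 13.1 and 9.68 CPM in OS and 8.84, 6.46 and 6.15 CPM in CH at 3 h (log2 fold change -2.22 ± 0.27 SE, limma adjusted p = 9.13e-08 in CH), but passed the threshold at no time in AD in this test. In edgeR it was also called in AD at 12 h. In OS at 12 h it was called in edgeR and under median-ratio scaling only.

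Counted over the 37 tested members, more rose than fell at 3 h in each medium, as was also so for all genes tested. At 12 h and 72 h in OS and AD more members fell than rose. In OS at 3 h, 5 members rose and 3 fell, 21.6% of those tested, against 18.4%, with 11.7% higher and 6.67% lower, of all genes tested. At 12 h 1 rose and 5 fell in OS, 16.2% against 21.8%, with 14.7% higher and 7.15% lower. At 72 h 6 fell in OS and none rose, 16.2% against 12.5%, with 7.2% higher and 5.29% lower. In this test the shares in OS lay within 6 percentage points of those of all genes. They moved with the setting: at 12 h 10 members were called under median-ratio scaling (27% against 20.6% of all genes) and 12 in edgeR (32.4% against 27.4%), and at 72 h 11 were called in edgeR (29.7% against 15.9%) and 11 with a pseudocount of 0.1 (29.7% against 16.5%). In AD at 3 h, 8 rose and 5 fell, 35.1% against 18.8%, with 12.4% higher and 6.42% lower. At 12 h 8 fell in AD and none rose, 21.6% against 13.7%, with 8.14% higher and 5.55% lower. This count was 0 up and 13 down under median-ratio scaling (35.1% against 13.4%), 2 up and 14 down in edgeR (43.2% against 16.7%) and 12 in all without AD 12 h replicate 1 (32.4% against 14.9%), where Actn4 (-1.24), Cnn2 (-1.15), Tpm4 (-1.14) and Myl6 (-1.05) were also called. At 72 h 1 rose and 11 fell in AD, 32.4% against 15.3%, with 6.19% higher and 9.08% lower. The falls in AD at 72 h were 5 of the 11 tested filament binders, 2 of the 7 cross-linkers, 2 of the 5 Z-disc and adhesion genes, 1 of the 4 myosin 2 genes, 1 of the 6 unconventional myosins and 0 of the 3 actins. In CH at 3 h, 9 rose and 2 fell, 29.7% against 18%, with 13.1% higher and 4.88% lower. At 12 h 8 rose and 2 fell in CH, 27% against 14.4%, with 9.44% higher and 5% lower. At 72 h 6 rose and 4 fell in CH, 27% against 18%, with 11.6% higher and 6.37% lower. Of the 37, 6 members with a called rise had fewer than the 3 samples at 1 CPM that the filter needs outside the medium where they are high: Lmod3, Myo7a and Pdlim3 in CH and Actn3, Mylk3 and Synpo2 in AD. Their rises there are therefore given as values only. Without them the rises are 6 in AD at 3 h, 0 in AD at 72 h, and 8, 6 and 3 in CH at 3 h, 12 h and 72 h. Median-ratio scaling, which sets the median gene equal between samples, shifted the median change of all genes by up to 0.21 on the log2 scale in these comparisons. Under it the split was 6 up and 3 down for CH at 3 h, against 8.5% higher and 7.45% lower for all genes, without Actn4, Pdlim4 and Des among the rises, and 7 up and 3 down for CH at 12 h, against 6.26% higher and 7.31% lower, without Cnn3. These rises still include Myo7a at both times and Lmod3 at 12 h. Cnn1 and Myh10 were each called in 7 of the 9 comparisons with 0 h. In edgeR and under median-ratio scaling Cnn1 was called in 7, and Myh10 and Actn2 in 8.

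**Figure D4:**
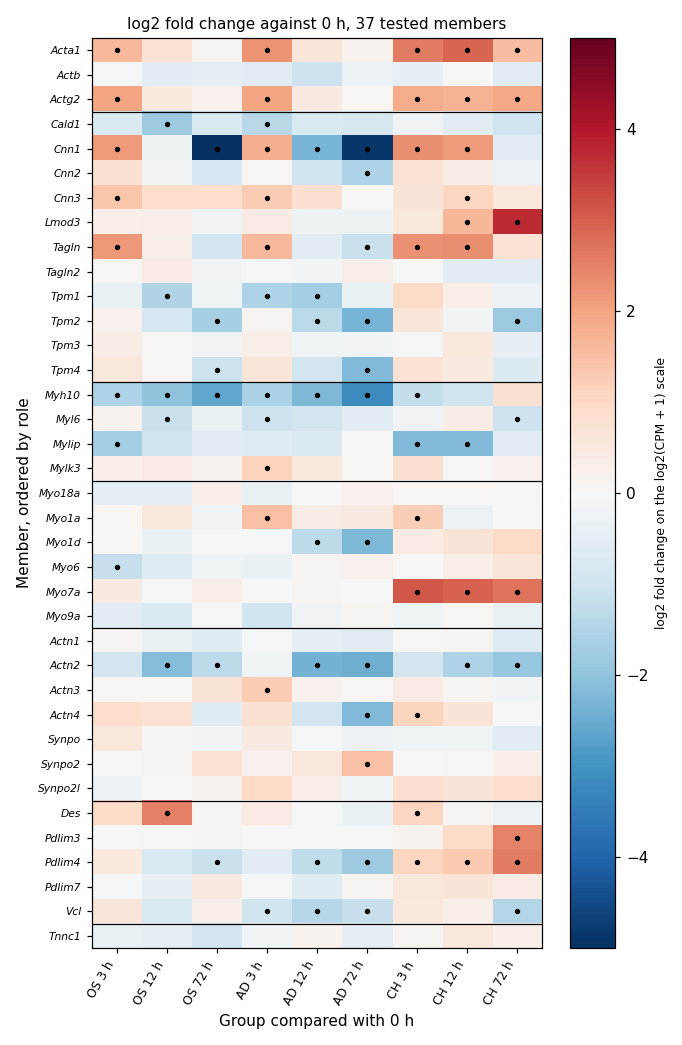
log2 fold change against 0 h (colour, on the log2(CPM + 1) scale, limited to ±5) of the 37 tested members (rows, grouped by role, with lines between roles) in the 9 induced groups (columns); dots mark members past the fold and p thresholds. Dotted rises include Acta1, Actg2, Cnn1 and Tagln at 3 h in each medium and in CH at 12 h. Dotted falls include Myh10 in OS and AD, Actn2, Tpm2 at 72 h and most dots of the AD 12 h and 72 h columns.

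Between media, members were compared at each time. At 3 h 5 members were higher and 1 lower in CH than in AD, 16.2% against 9.35%, with 5.13% higher and 4.22% lower, of all genes tested. At 12 h 17 were higher and 1, Mylip, was lower, 48.6% against 13.6%, with 7.04% higher and 6.56% lower. At 72 h 14 were higher and 1, Synpo2, was lower, 40.5% against 25.5%, with 16.5% higher and 9.01% lower. Without the 6 members that passed the filter through the medium where they are high, CH exceeded AD in 4, 15 and 11 members at the 3 times and was lower in 1, 1 and 0. The 17 at 12 h came from every role except the troponins: the actins Acta1 and Actg2, the myosins Myh10, Myl6, Myo1d and Myo7a, the filament binders Cnn1, Cnn2, Tagln, Tpm1, Tpm2, Tpm4 and Lmod3, the cross-linker Actn4, and Pdlim4, Pdlim7 and Vcl. The median log2 difference of the 37 members, CH minus AD at 12 h, was 0.92, and that of all genes tested was -0.01. In OS against CH, most members called were lower in OS. At 3 h none was higher and 5 were lower in OS than in CH, 13.5% against 7.31%, with 2.25% higher and 5.07% lower, but only 3 were called under median-ratio scaling (8.11% against 6.56%) and 3 without CH 3 h replicate 3. The share of all genes without that replicate is not given. Myo1a, 1 of the 5 (-1.15), was -1.03 without OS 3 h replicate 3, with a limma adjusted p = 0.0926. At 12 h 2 were higher and 14 lower, 43.2% against 16%, with 8.87% higher and 7.08% lower. At 72 h 1 was higher and 11 were lower, 32.4% against 19.6%, with 8.55% higher and 11.1% lower. Without those 6 members, OS was lower than CH in 4, 12 and 8 at the 3 times. At 3 h 4 were higher and 4 lower in OS than in AD, 21.6% against 7.66%, with 2.77% higher and 4.88% lower. Without OS 3 h replicate 3 the number was 6: Myl6 (from 1.20 to 0.66), Pdlim4 (from 1.03 to 0.76) and Mylip (from -1.03 to -0.97) were no longer called, and Actn2 was gained (16.2% against 8.07%). Actn3, 1 of the 4 lower in OS, is among those that passed the filter through AD. At 12 h 3 were higher and 1 was lower, 10.8% against 13.2%, with 6.99% higher and 6.17% lower, and 8 instead of 4 were called without AD 12 h replicate 1 (21.6% against 16.9%). At 72 h 5 were higher in OS and none lower, 13.5% against 13.7%, with 9.21% higher and 4.52% lower. Median-ratio scaling gave 4 higher and 1 lower for the last, against 5.5% higher and 7.66% lower for all genes, and Tpm4, 1.10 in the main test, was 0.76 there and 0.75 without AD 72 h replicate 3.

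From 3 h to 12 h, members fell in OS and AD, and few were called in CH. In OS 1 rose and 10 fell, 29.7% against 7.82%, with 4.7% higher and 3.12% lower, of all genes tested, and 7 instead of 11 were called without OS 3 h replicate 3 (18.9% against 8.27%). In AD 12 fell and none rose, 32.4% against 12.9%, with 5.13% higher and 7.82% lower. The number that fell was 11 without Actn3, which passed the filter through AD. Without AD 12 h replicate 1 the count over all tested members was 1 up and 11 down (32.4% against 15.4% of all genes, 6.44% higher and 8.92% lower), and Actn3 went from -1.02 to -0.94 and was not called. In CH 1 rose, Lmod3, and 1 fell, Myo1a, 5.41% against 7.68%, with 1.74% higher and 5.94% lower, and without Lmod3, which passed the filter through CH, none rose. In edgeR 4 were called (10.8% against 9.6%). From 12 h to 72 h, 3 rose and 5 fell in OS, 21.6% against 23.2%, with 9.67% higher and 13.5% lower. In edgeR this split turned to 8 up and 4 down (32.4% against 30.4%), as did that of all genes (18.3% higher and 12.1% lower), and 15 were called with a pseudocount of 0.1 (40.5% against 30.4%). In CH 5 rose and 7 fell, 32.4% against 13.2%, with 7.98% higher and 5.23% lower, and 3 rose without Lmod3 and Pdlim3. In AD 1 rose and 3 fell, 10.8% against 16%, with 5.18% higher and 10.8% lower. Of these falls, Actn4 (-1.28) was -0.97 without AD 12 h replicate 1 and Tpm4 (-1.29) was -0.94 without AD 72 h replicate 3, both then below the threshold. Median-ratio scaling turned this split to 4 up and 1 down, against 9.9% higher and 5.82% lower for all genes, and shifted the median of all genes by 0.26. The 4 include Synpo2, which passed the filter through AD, where it is high. Cnn1 fell in all 3 media over this step (log2 fold change -4.95 ± 0.17 SE, limma adjusted p = 1.1e-20 in OS, -2.51 ± 0.17 SE, adjusted p = 2.51e-13 in AD, -2.68 ± 0.17 SE, adjusted p = 1.27e-13 in CH).

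Single regulators of this machinery were then described. Rnd1, known for dissolving stress fibres, fell in all 9 comparisons, from 79.6, 80.2 and 83.4 CPM to 3.77, 4.18 and 7.02 CPM in OS, 6.02, 28.7 and 29.4 CPM in AD and 12.3, 14.6 and 15.8 CPM in CH at 72 h (each triple here and below from lowest to highest). Its relative Rnd3 was 2818, 3016 and 3165 CPM at 0 h and 795, 857 and 883 CPM in CH at 12 h (log2 fold change -1.83 ± 0.11 SE, limma adjusted p = 2.18e-14). Rock2, a kinase that activates myosin 2, was 1215, 1261 and 1421 CPM at 0 h and 360.2, 419 and 422 CPM in CH, 449.9, 601 and 770.4 CPM in OS and 442, 498 and 504 CPM in AD at 3 h, and fell in all 3 (log2 fold change -1.70 ± 0.15 SE, limma adjusted p = 1.02e-10 in CH).

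Matricellular genes that respond to YAP and SRF separated AD from CH. Cyr61 was 458, 495 and 520.0 CPM at 0 h, 50.4, 66.2 and 69.4 CPM in AD at 3 h and 13.6, 16.8 and 47 CPM in AD at 12 h (log2 fold change -4.40 ± 0.29 SE, limma adjusted p = 3.63e-13), but 422, 493 and 524 CPM and 389.9, 400.1 and 545 CPM in CH. Ctgf was 11.8, 16.8 and 19.6 CPM at 0 h, rose in CH at 3 h to 57.8, 62.5 and 71 CPM (log2 fold change 1.95 ± 0.35 SE, limma adjusted p = 2.99e-05) and fell in AD at 3 h to 3.54, 5.35 and 5.66 CPM (log2 fold change -1.54 ± 0.35 SE, limma adjusted p = 0.000577). Its rise in OS at 3 h, 1.12, was 0.89 under median-ratio scaling. Ankrd1, a muscle ankyrin repeat protein and YAP target, was 1.72, 2.23 and 2.27 CPM at 0 h, 8.39, 9.71 and 11.3 CPM in CH at 3 h (log2 fold change 1.81 ± 0.25 SE, limma adjusted p = 4.89e-07) and 0 in all 3 AD samples at 72 h. Myocd, myocardin, the SRF cofactor of smooth muscle, was 2.58, 2.79 and 3.01 CPM at 0 h and 0, 0.158 and 0.177 CPM in AD at 72 h (log2 fold change -1.77 ± 0.37 SE, limma adjusted p = 0.000265), and in CH it was 2.21, 3.23 and 5.09 CPM at 3 h and 0, 0.663 and 1.03 CPM at 72 h.

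**Figure D5:**
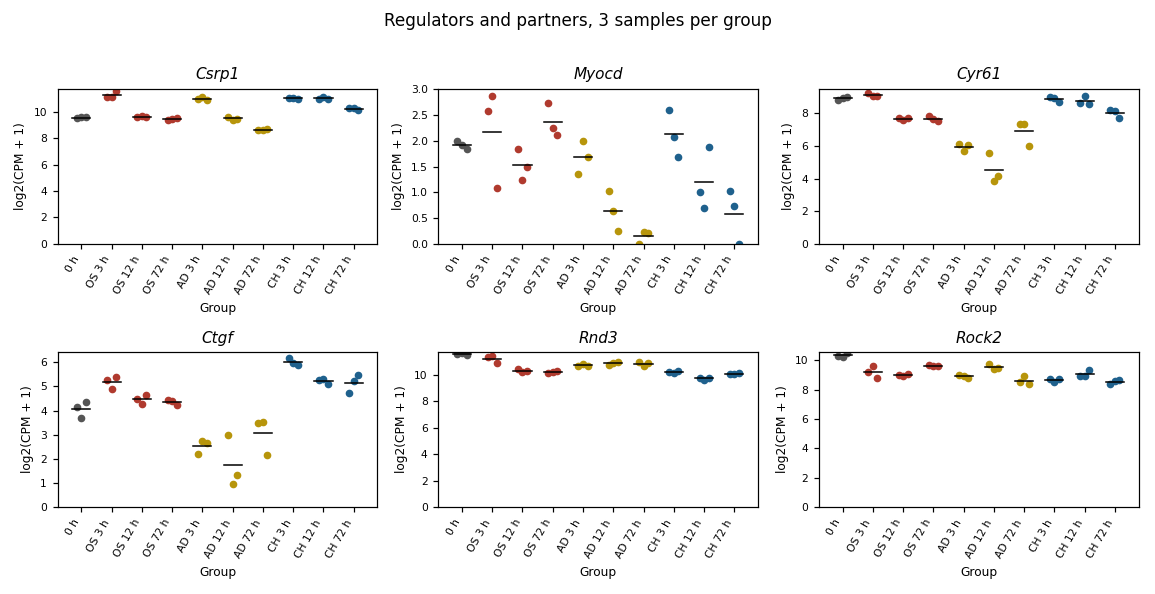
log2(CPM + 1) per sample (y axis) in the 10 groups (x axis) for the adhesion gene Csrp1 and 5 regulators; points are samples and black bars are means of 3. Csrp1 is raised at 3 h in each medium and at 12 h in CH, Cyr61 and Ctgf drop in AD while Ctgf in CH lies above 0 h, and Rock2 is below 0 h in every induced group.

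Of 21 focal adhesion genes, 13 were listed and 10 tested. Csrp1, a LIM protein of smooth muscle that binds alpha-actinin, was 746, 766 and 770.4 CPM at 0 h and 2210.0, 2242 and 3161 CPM in OS, 1928, 1989.7 and 2200.2 CPM in AD and 2062, 2141 and 2171 CPM in CH at 3 h. It rose in all 3 media (log2 fold change 1.72 ± 0.11 SE, limma adjusted p = 5.08e-14 in OS, 1.42 ± 0.11 SE, adjusted p = 3.04e-12 in AD, 1.48 ± 0.11 SE, adjusted p = 1.12e-12 in CH), and at 12 h it was 2015, 2024 and 2276 CPM in CH against 769, 771 and 813 CPM in OS and 682, 712 and 805 CPM in AD. Across the focal adhesion list, 1 to 3 genes were called in each comparison with 0 h, 10% to 30% of the 10 tested, beside the 12.5% to 21.8% of all genes given above. Fhl1, a LIM protein of muscle, was 1.06, 1.81 and 2.01 CPM at 0 h and fell in 5 of the 9 comparisons, to 0 in all 3 AD samples at 12 h (log2 fold change -1.37 ± 0.25 SE, limma adjusted p = 4.81e-05). Of 32 actin assembly genes, 19 were listed and 16 tested, and at most 1 was called against 0 h except in AD at 72 h, where Pls3, Msn, Dstn and Cfl1 fell and none rose (25% of the 16 tested, beside 15.3% of all genes). The fall of Cfl1, cofilin, -1.17, was -0.98 under median-ratio scaling. Msn, moesin, a linker of actin to the membrane, was 1340.3, 1347 and 1377 CPM at 0 h and 380.2, 536 and 554 CPM in AD at 72 h (log2 fold change -1.49 ± 0.15 SE, limma adjusted p = 3.61e-09). Before that it was above 0 h, and called higher, in OS at 3 h and 12 h, in AD at 3 h and in CH at 3 h and 12 h, with log2 fold changes of 1.18, 1.06, 1.37, 1.28 and 1.28, of which those in AD at 3 h and CH at 12 h were also called under median-ratio scaling.

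Markers of smooth muscle cells and pericytes are given beside the smooth-muscle-type members. Of 7 such markers, 4 were listed (Myocd, Cspg4, Notch3 and Pln), and their summed level was 32.2 ± 4.07 CPM at 0 h, 136 ± 23.5, 147 ± 2.58 and 93.1 ± 2.92 CPM in OS at 3 h, 12 h and 72 h, 48 ± 0.566, 18.3 ± 12.4 and 5.54 ± 0.415 CPM in AD, and 202 ± 5.64, 108 ± 19.4 and 80.6 ± 6.42 CPM in CH (mean ± SD, n = 3). The AD 12 h samples were 32.6, 11.05 and 11.1 CPM, the first being replicate 1, which stands apart. The sum was above 0 h at 3 h in each medium and stayed above it in OS and CH at 12 h and 72 h, whereas the smooth muscle set was below 0 h in OS at both times and in CH at 72 h. Most of it was Cspg4, the proteoglycan NG2, and Pln, phospholamban, had at most 6 reads. The stromal marker sum was 16383 ± 443 CPM at 0 h, 22558 ± 1071, 18852 ± 93.4 and 16324 ± 735 CPM in OS at 3 h, 12 h and 72 h, 17009.6 ± 713, 10628 ± 1642 and 4514 ± 354 CPM in AD, and 16047 ± 870.2, 14476 ± 1944 and 9286 ± 259.8 CPM in CH. Their part in the changes of the members was not tested, and in these bulk samples more cells of a type and more RNA of a gene per cell cannot be told apart.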

How the data were processed

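Total RNA of 30 pooled samples was sequenced after ribosomal RNA removal, per the labels, and the study describes an mRNA kit instead. The submitters' processing notes name Trimmomatic, HISAT2 and StringTie, and their versions and the genome build are not given in the sources used here. The deposited values are headed FPKM but are CPM: 100% of them were whole multiples of what 1 read is worth in the sample, within 0.1 read. The values the authors deposited are thus read counts divided by the library total, and whole reads were recovered from them. Listed genes held 38.9% to 71.4% of the reads, so every sample lacks part of its library here. Rows of the same name were summed, which joined 729 names.

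Differences were tested with limma 3.58.1 (R 4.3.3, empirical Bayes with trend) on log2(CPM + 1), in 1 model over 30 samples and 10 groups, for the 4363 genes that reached 1 CPM in 3 or more samples. Calls needed an absolute log2 fold change of at least 1 and a Benjamini-Hochberg adjusted p below 0.05 over all genes tested, the thresholds of the study. The model gave 9 comparisons with 0 h, 9 between media at the same time and 6 between successive times, and the difference between time steps was tested as an interaction in the same model. Tables and figures used pandas 2.3.3, numpy 2.4.6 and matplotlib 3.10.9 under Python 3.11.15, and the scripts were tested on simulated data. Alternatives were median-ratio scaling, equal sums over listed genes, a pseudocount of 0.1, no filter, separate fits of the 6 samples compared, edgeR 4.0.16 quasi-likelihood tests on the recovered reads, a replicate block and leaving out each replicate.

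Genes were named from a smooth muscle set, a non-muscle set and a sarcomeric set, from the up to 4 largest rises and falls without overlap in each comparison, and from regulators and partners past the threshold, and the counts over 1 list of regulators are not reported here. Mylk3 and Pdlim7 lie outside these and were named after their values were seen. The members and lists were chosen with earlier results of these data known. All 30 pairs of replicates differed by more than counting noise, so each counts as 1 sample. Replicate numbers did not pair the samples, since same-numbered samples of different groups had a median correlation of deviations of -0.00854. Floors of 3 reads cover counting error only, while the SE values come from the spread between samples in the limma model. Promoter windows came from RefSeq, build GRCr8, and the planned identity between actin proteins was not analysed here.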

Additional observations from a re-analysis of the deposited data

Results flagged for a closer look

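Among the 13 members with a mean of at least 10 CPM, the step from 1 time to the next differed between media for those named here, by an interaction term of the limma model. Each value is the difference of 2 log2 changes, first medium minus second, and the p is adjusted over all genes tested.

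From 3 h to 12 h, Cnn1 and Tagln fell in OS and AD, and their change in CH was below the threshold. For Cnn1 the difference of steps was 1.76 ± 0.24 SE, adjusted p = 2.52e-06 for OS minus AD, -2.20 ± 0.24 SE, adjusted p = 2.07e-08 for OS minus CH and 3.96 ± 0.24 SE, adjusted p = 1.69e-13 for CH minus AD. For Tagln it was -1.95 ± 0.31 SE, adjusted p = 1.5e-05 for OS minus CH and 2.22 ± 0.31 SE, adjusted p = 2.32e-06 for CH minus AD. Actn4 differed by 1.54 ± 0.23 SE, adjusted p = 8.99e-06 for OS minus AD and 1.24 ± 0.23 SE, adjusted p = 0.000124 for CH minus AD, and Tpm4 by 1.06 ± 0.27 SE, adjusted p = 0.00617 and 1.25 ± 0.27 SE, adjusted p = 0.000998 for the same pairs. The first Tpm4 value was 0.91 without OS 3 h replicate 3 and 0.97 under median-ratio scaling, both below the threshold. Myo1d differed by 1.43 ± 0.20 SE, adjusted p = 3.55e-06 for CH minus AD, Pdlim4 by -1.48 ± 0.32 SE, adjusted p = 0.000798 for OS minus CH, and Cald1, lower at 12 h than at 3 h in OS, by -1.74 ± 0.41 SE, adjusted p = 0.00274 for OS minus AD. Among all genes tested, 11.1% differed for OS minus AD, 14.1% for OS minus CH and 14.3% for CH minus AD, against 8, 10 and 10 of the 37 members. The 8 include Actn3 and each 10 includes Lmod3, members that passed the filter through the medium where they are high.

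From 12 h to 72 h, Myh10 rose in CH and was lower at 72 h in the other media, and its steps differed by -2.34 ± 0.15 SE, adjusted p = 2.14e-13 for OS minus CH and 2.68 ± 0.15 SE, adjusted p = 1.16e-14 for CH minus AD. Cnn1 lost most in OS over this step, by -2.44 ± 0.24 SE, adjusted p = 5.37e-09 for OS minus AD and -2.27 ± 0.24 SE, adjusted p = 5.82e-09 for OS minus CH. Pdlim4 differed by -1.59 ± 0.32 SE, adjusted p = 0.000239 for OS minus CH and 1.79 ± 0.32 SE, adjusted p = 6.16e-05 for CH minus AD. Tpm1, which recovered in OS and AD, differed by 1.94 ± 0.30 SE, adjusted p = 7.28e-06 and -1.97 ± 0.30 SE, adjusted p = 6.79e-06 for these pairs. Cald1 differed by 1.11 ± 0.41 SE, adjusted p = 0.0455 for OS minus AD and 1.52 ± 0.41 SE, adjusted p = 0.00412 for OS minus CH. Mylip differed by -1.28 ± 0.39 SE, adjusted p = 0.0112 for OS minus CH and 1.02 ± 0.39 SE, adjusted p = 0.0493 for CH minus AD, and the latter was 0.47 without AD 72 h replicate 3 and 0.93 without AD 12 h replicate 1. Myo1d differed by 1.17 ± 0.20 SE, adjusted p = 7.93e-05 for OS minus AD and 1.28 ± 0.20 SE, adjusted p = 1.34e-05 for CH minus AD, and these were 0.84 and 0.95 without AD 12 h replicate 1. Tagln differed by -1.0 ± 0.31 SE, adjusted p = 0.014 for CH minus AD, which was -0.82 without AD 72 h replicate 3 and -0.84 without AD 12 h replicate 1. Under median-ratio scaling Cald1 and Myo1d for OS minus AD were 0.85 and 0.91, and Mylip for CH minus AD was 0.78. Among all genes tested, 14.2% differed for OS minus AD, 22.5% for OS minus CH and 19.3% for CH minus AD, against 4, 13 and 11 members. The 13 and the 11 each include Lmod3 and Pdlim3, which passed the filter through CH, where they are high.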

How the results depend on the processing

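The number of members called was within 1.5 times in all 24 comparisons with no filter on low values and with separate fits of the 6 samples compared, and no member called here or under an alternative changed sign between them, while 38 of 888 differences, all uncalled, changed sign under median-ratio scaling and 42 in edgeR. Against 0 h, the count for OS at 12 h, 6, was 10 under median-ratio scaling, 10 with equal sums over listed genes and 12 in edgeR. The share of all genes with equal sums is not given, so that count cannot be set beside it. The count for OS at 72 h, 6, was 11 with a pseudocount of 0.1 and 11 in edgeR, and that for AD at 12 h, 8, was 13 under median-ratio scaling and 16 in edgeR. For OS against CH at 3 h, 5 became 3 under median-ratio scaling. From 12 h to 72 h, 8 became 15 in OS (40.5% of members against 30.4% of all genes) and 4 became 7 in AD (18.9% against 21.1%) with a pseudocount of 0.1, and from 3 h to 12 h in CH 2 became 4 in edgeR (10.8% against 9.6%). The cause of these shifts was not tested. Leaving out 1 replicate at a time kept 138 of 144 counts within 1.5 times. The exceptions were OS against CH at 3 h, 3 to 6 (3 without CH 3 h replicate 3), OS against AD at 12 h, 3 to 8 (8 without AD 12 h replicate 1), OS from 3 h to 12 h, 7 to 11 (7 without OS 3 h replicate 3), AD from 12 h to 72 h, 4 to 8 (8 without AD 12 h replicate 2 or replicate 3), and CH from 3 h to 12 h, 2 to 4 (4 without CH 12 h replicate 3). Shares of all genes are not given without AD 12 h replicate 2 or 3, CH 3 h replicate 3 or CH 12 h replicate 3. Those counts therefore cannot be set apart from a shift of all genes. With the replicate number as a block, all 24 counts stayed within 1.5 times, for example 18 for CH against AD at 12 h, and 3 of 135 same-numbered pairs had a correlation over 0.1, so the numbers do not pair the samples. Of the tested members, 24 had a mean below 10 CPM, and depth limits what can be called for them.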
